A study of Mus musculus with 12 samples.

Results

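The Notch pathway was described in the embryonic mouse cortex through 10 genes chosen by name: the receptors Notch1, Notch2 and Notch3, the ligands Dll1, Dll3 and Jag1, the DNA-binding partner Rbpj, and the effectors Hes1, Hes5 and Hey1. They are 10 of the 54735 gene symbols in each library, and all 10 were among the 11764 genes that entered the test because their TPM averaged 1 or more over the libraries. TPM is a transcript abundance divided by gene length and scaled so that each library sums to 1000000. The tissue was the pallium, the dorsal telencephalon that forms the cortex, of C57/Bl6 embryos at E13.5, with 4 libraries for each of 3 genotypes. Control embryos were Rnu11wt/flx::Trp53wt/wt::Emx1-Cre+, cKO embryos Rnu11flx/flx::Trp53wt/wt::Emx1-Cre+ and dKO embryos Rnu11flx/flx::Trp53flx/flx::Emx1-Cre+. Rnu11 encodes the U11 small nuclear RNA of the minor spliceosome, and Trp53 encodes p53. Emx1-Cre was present in all groups, which leaves controls with 1 deleted copy of Rnu11, and no group had Trp53 deleted alone. The labels do not say whether embryos of a group came from separate litters, so p-values measure only the spread between these libraries. Emx1-Cre acts in pallial progenitors and their progeny, so vessel cells, microglia and meninges in the dissected tissue keep both genes.

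In Notch signalling, a ligand on the surface of 1 cell binds a receptor on its neighbour, the receptor is cut by proteases, and its intracellular part enters the nucleus and joins Rbpj to switch on genes such as Hes1, Hes5 and Hey1. These encode repressors that hold down proneural genes such as Neurog2. In the developing cortex, newly forming neurons and intermediate progenitors present Delta-like ligands, and radial glia, the neural stem cells of this tissue, receive the signal and stay undifferentiated.

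The window from 250 bases before to 50 bases after the transcription start is shown for 3 members: Hes5, an effector that was lower in cKO, Jag1, a ligand that was higher, and Dll1, a ligand that was not called in any comparison (the start that lies inside the annotated gene). The sequences are from RefSeq (GRCm38.p6, the assembly also called mm10) and are written on the strand of the gene. Capitals mark the core of the Rbpj motif, TGGGAA or its complement TTCCCA.
Hes5 (chr4:154960673-154960972, plus strand): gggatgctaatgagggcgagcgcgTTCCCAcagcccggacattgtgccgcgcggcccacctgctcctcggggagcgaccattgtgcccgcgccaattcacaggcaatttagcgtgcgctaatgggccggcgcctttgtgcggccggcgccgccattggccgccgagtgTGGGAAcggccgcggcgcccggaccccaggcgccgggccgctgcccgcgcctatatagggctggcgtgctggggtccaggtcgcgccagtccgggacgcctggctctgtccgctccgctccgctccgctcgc
Jag1 (chr2:137116471-137116770, minus strand): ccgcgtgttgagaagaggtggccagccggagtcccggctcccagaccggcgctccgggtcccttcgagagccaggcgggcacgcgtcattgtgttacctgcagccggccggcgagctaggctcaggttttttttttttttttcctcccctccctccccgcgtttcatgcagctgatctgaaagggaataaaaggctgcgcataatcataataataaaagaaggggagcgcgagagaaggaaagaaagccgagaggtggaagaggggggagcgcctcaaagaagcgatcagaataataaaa
Dll1 (chr17:15375774-15376073, minus strand): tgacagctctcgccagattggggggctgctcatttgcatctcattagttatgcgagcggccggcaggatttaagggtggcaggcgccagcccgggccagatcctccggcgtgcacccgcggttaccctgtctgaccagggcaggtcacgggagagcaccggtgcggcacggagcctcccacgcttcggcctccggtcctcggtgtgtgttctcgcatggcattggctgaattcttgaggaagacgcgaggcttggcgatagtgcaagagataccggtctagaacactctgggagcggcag
The Hes5 window holds 2 matches to the core, which begin 226 and 82 bases before the start in opposite orientations. Both also match the longer form GTGGGAA. The Jag1 and Dll1 windows hold none. RefSeq windows were found for 8 of the 10 members, in 10 windows since Dll1 and Rbpj have 2 starts each, and Hes1 and Hey1 had none in the table. Besides Hes5, the Rbpj windows held the core, so 3 of the 10 windows had a match on either strand. The 2 Rbpj windows overlap and share a match, so by gene the core was found in 2 of the 8 members. Of all 32851 RefSeq windows, 25.56% held TGGGAA and 6.383% held GTGGGAA on either strand, every match to the second containing a match to the first. For the N box CACNAG, a motif of Hes proteins, 42.48% of all windows had a match on either strand, and for the E box CANNTG, a motif of proneural factors, 72.31%. A single E box lies in each of the Hes5, Jag1 and Dll1 windows shown, and none of these windows holds an N box. The other Dll1 window (chr17:15376883-15377182), which is not shown, holds 3 E boxes, 1 N box and 0 matches to the Rbpj core. These matches describe letters in the windows and are not measured binding sites.

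The median over all tested genes was shifted in the comparisons that involve cKO, so each comparison is given on 2 scales. As deposited, the median log2(TPM + 1) difference over all tested genes was 0.25 between cKO and control, -0.01 between dKO and control, and -0.26 between dKO and cKO. Median-shift centring moves each library by the median of its differences from the mean library, which leaves medians of -0.0034, 0.0051 and 0.0106. The deletions were visible in the libraries: mean Rnu11 was 22.6% of control in cKO and 25.6% in dKO, and mean Trp53 was 32.1% of control in dKO. The 5 pallial markers reported, among them Emx1 and Pax6, were above 0 in every group, and the sum of 8 ventral telencephalon markers was at most 4.79 TPM in any library. Library cKO 4 had the highest share of TPM in nuclear protein-coding genes, 19.99%, and the other 11 ranged from 14.4% to 17.5%.

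In control pallium Hey1 and Dll1 were the most abundant members, at 15.9 ± 2.33 and 15.2 ± 3.09 TPM (SD, n = 4). Hes5 (8.17 ± 2.48 TPM), Hes1 (6.86 ± 1.14), Rbpj (6.32 ± 0.929) and Notch1 (6.21 ± 1.44) formed a middle group. Notch2 stood at 3.08 ± 0.774 TPM, and Dll3, Jag1 and Notch3 at 1.84 ± 0.276, 1.83 ± 0.249 and 1.58 ± 0.492 TPM. Between neighbours in this order, control values overlapped except from Notch1 to Notch2 and from Notch2 to Dll3. In cKO the order changed in that Dll1 came first, Hes5 moved from the third to the sixth place, and Jag1 stood above Dll3 and Notch3. In dKO, Dll1 and Hey1 again led, and Notch1, Hes1, Hes5 and Rbpj followed with overlapping values.

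**Figure D1:**
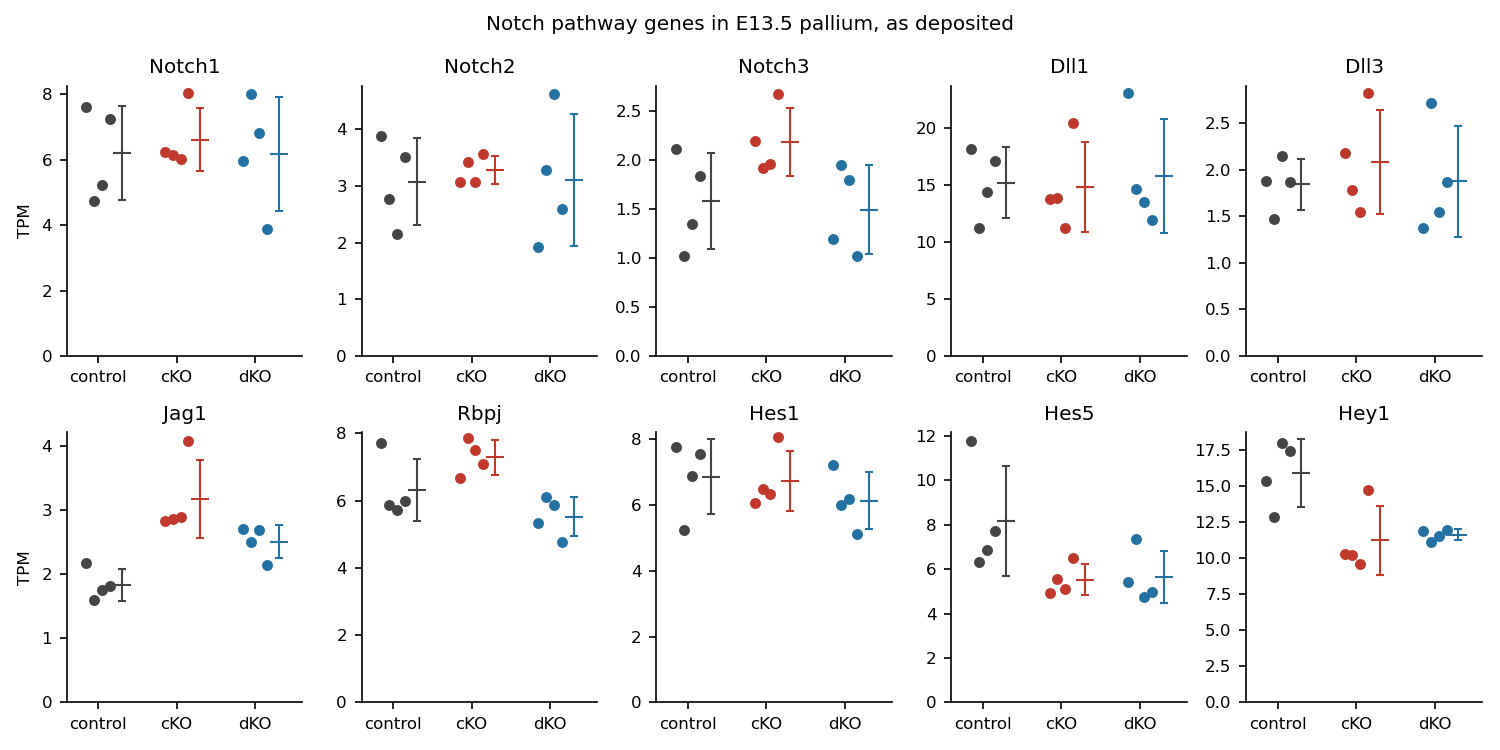
TPM of the 10 members as deposited, 1 point per embryo in the order of replicate numbers, with the mean and SD of each group of 4 beside the points and every axis starting at 0. Jag1 is higher in all 4 cKO embryos (2.83 to 4.08 TPM) than in all 4 controls (1.59 to 2.18), and Hes5 and Hey1 have lower means in both mutants than in control.

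The comparison of cKO with control addresses what followed loss of U11 in this pathway. The effectors Hes5 and Hey1 fell and the ligand Jag1 rose, both as deposited and after centring, and the 3 receptors, Dll1, Dll3, Rbpj and Hes1 were not called on either scale. In counts, 1 of 10 members was called higher and 2 lower by limma with Benjamini-Hochberg adjustment over all genes, beside 34.3% of all tested genes called higher and 1.09% called lower as deposited (35.4% in all). After centring the same 3 members were called, beside 3.72% of all genes called higher and 2.96% lower (6.68% in all). They were also the 3 called after rescaling to an equal protein-coding sum, where 11.3% of all genes were called higher and 1.74% lower (13.1% in all). Values of the 2 groups did not overlap for 1 member as deposited, beside 33.7% of all genes, and for 3 after centring, beside 16.6%. The median difference of the 10 members was 0.09 as deposited, where that of all genes was 0.25, and -0.16 after centring. These are bulk tissue values, in which fewer cells of a type and less RNA per cell cannot be told apart.

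Hes5, a repressor of the Hes family made in radial glia, lies at chr4:154960923-154962371. It read 11.8, 6.31, 6.86 and 7.74 TPM in controls 1 to 4 and 4.95, 5.55, 5.10 and 6.48 TPM in cKO 1 to 4. Control 1 was the highest of all libraries, and cKO 4 lay above control 2, so the groups overlapped as deposited. On the centred log2 scale the controls ran from 3.03 to 3.70 and the cKO embryos from 2.50 to 2.59, without overlap. The cKO mean was 67.6% of control, a log2 difference of -0.46 ± 0.17 as deposited (SE; limma adjusted p = 0.0494) and -0.71 ± 0.14 after centring (adjusted p = 0.0113). As deposited the call is close to the threshold and held in only 2 of 12 fits that left out 1 embryo, those without control 2 and without dKO 2. The smallest difference, without control 1, was -0.29 (adjusted p = 0.105). After centring the call held without any single embryo, with differences from -0.78 to -0.56 and a largest adjusted p of 0.0363.

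Hey1, a related repressor with a hairy-type basic helix-loop-helix domain, lies at chr3:8663359-8667256. Controls 1 to 4 read 15.3, 12.9, 17.997 and 17.4 TPM, and cKO 1 to 4 read 10.3, 10.2, 9.61 and 14.7 TPM. The first 3 cKO embryos lay below every control, and cKO 4 lay above control 2 only. After centring the groups separated, from 3.95 to 4.33 in control and from 3.29 to 3.66 in cKO. The cKO mean was 70.6% of control, with log2 differences of -0.48 ± 0.13 as deposited (SE; limma adjusted p = 0.0168) and -0.72 ± 0.10 after centring (adjusted p = 0.00111). Leaving out cKO 2 moved the deposited value to -0.44 and its adjusted p to 0.0513, and no single embryo ended the centred call.

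Hes1, the effector of the same family as Hes5, was not called. Controls read 7.76, 5.25, 6.88 and 7.55 TPM and cKO embryos 6.04, 6.49, 6.31 and 8.05 TPM, so the groups overlapped. Its log2 difference was -0.02 as deposited (limma adjusted p = 0.911; 95% interval -0.29 to 0.25) and -0.27 after centring (adjusted p = 0.143; interval -0.49 to -0.05). Whether Hes1 differs from Hes5 in its response was not tested.

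Jag1 encodes a Serrate-type ligand and lies at chr2:137081456-137116644. In controls it read 2.18, 1.59, 1.75 and 1.82 TPM, and in cKO embryos 2.83, 2.86, 2.89 and 4.08 TPM. Every cKO embryo was above every control on both scales, and cKO 4 stood apart from the other 3 as deposited. The cKO mean was 173% of control, with log2 differences of 0.55 ± 0.11 as deposited (SE; limma adjusted p = 0.00362) and 0.30 ± 0.08 after centring (adjusted p = 0.0415). Leaving out 1 embryo at a time kept the deposited call in all 12 fits but the centred one in only 5 of 12, those without control 1, cKO 2, dKO 1, dKO 2 or dKO 4, with a largest adjusted p of 0.112.

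Jag1 is also made in vessel walls and other cells outside the Emx1 lineage, and markers of such cells moved in the same comparison. Summed over 8 endothelial markers the controls held 10.1 to 14.1 TPM and the cKO embryos 21.2 to 27.9, and 7 of the 7 that entered the test were called higher as deposited and 3 after centring, where 34.3% and 3.72% of all genes were. For 6 pericyte markers the sums were 3.07 to 3.80 and 6.02 to 8.02 TPM, with 2 of 2 tested called as deposited and 1 after centring. Meningeal markers (6 listed) summed to 23.0 to 39.9 TPM in control and 41.6 to 49.9 in cKO, with 3 of 4 tested called as deposited and 1 after centring. None of the markers in these 3 lists was at 0 throughout a group. Their part in the Jag1 difference was not tested.

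The Delta-like ligands showed no such difference. Dll1, which newly forming neurons present to radial glia, read 18.1, 11.2, 14.3 and 17.0 TPM in controls, and the cKO embryos had 13.7, 13.8, 11.2 and 20.4 TPM, with overlapping groups and a deposited log2 difference of -0.04 (limma adjusted p = 0.877; 95% interval -0.51 to 0.42). After centring the Dll1 difference was -0.29 (adjusted p = 0.418; interval -0.71 to 0.12). Dll3, a divergent family member that inhibits Notch within the cell that makes it, ranged from 1.47 to 2.14 TPM in control and from 1.54 to 2.82 in cKO.

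The receptors spread as widely within groups as between them. Notch1 ran from 4.74 to 7.63 TPM in control and from 6.02 to 8.05 in cKO, and its 95% interval for the deposited difference was -0.31 to 0.49. Notch2 ran from 2.15 to 3.89 and from 3.08 to 3.57 TPM. For Notch3, a receptor also made in pericytes, the ranges were 1.02 to 2.11 and 1.92 to 2.67 TPM, and its log2 difference of 0.32 as deposited (limma adjusted p = 0.124) was 0.07 after centring. Rbpj ran from 5.73 to 7.70 TPM in control and from 6.68 to 7.87 in cKO, with differences of 0.19 as deposited and -0.06 after centring, and was called as deposited once control 1 was left out (0.27, limma adjusted p = 0.0366). The direction for Notch1, Notch2, Dll3 and Rbpj turned from positive as deposited to negative after centring.

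**Figure D2:**
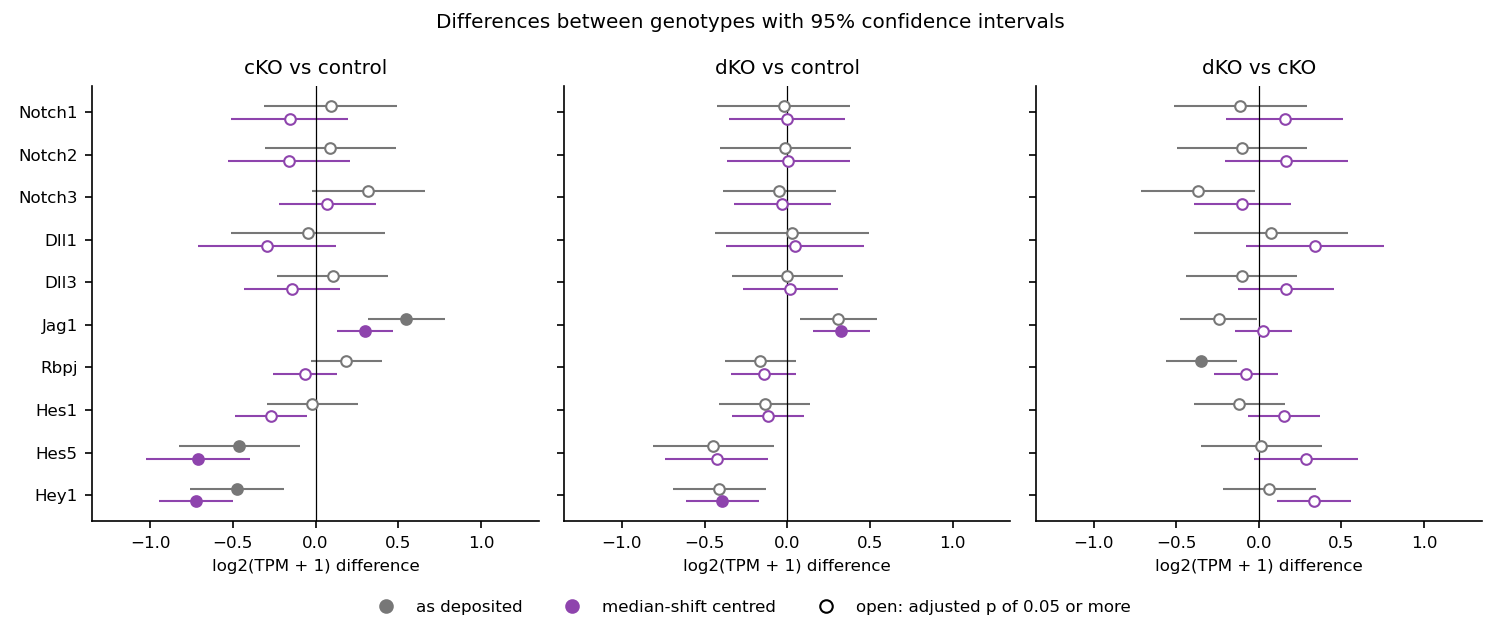
Differences in log2(TPM + 1) between genotypes for the 10 members with 95% confidence intervals from limma, as deposited in grey and after median-shift centring in purple, filled where the adjusted p is under 0.05. In cKO against control Jag1 (0.55 and 0.30), Hes5 (-0.46 and -0.71) and Hey1 (-0.48 and -0.72) are filled on both scales.

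Each member was also set against radial glia markers of the same library. Because 1 is added before the log, a library's scale does not cancel fully, least of all for low genes such as Jag1. The mean log2(TPM + 1) of 9 markers (Sox2, Pax6, Nes, Vim, Slc1a3, Fabp7, Hopx, Sox9 and Prom1) was subtracted from the member's own value. Hes5 lay between -1.18 and -0.61 in controls and between -1.59 and -1.52 in cKO on this scale, a difference of -0.56 without overlap. Hey1 differed by -0.58 and Jag1 by 0.45, also without overlap. Each has an exact two-sided permutation p of 0.0286, the smallest that 70 assignments of 4 against 4 embryos allow. The adjusted p of 0.171 over 30 tests does not pass 0.05. It could do so only if most of the 30 tests stood at that smallest p, so no conclusion is drawn from it. For Hes1 the difference was -0.12 (exact permutation p = 0.2, adjusted 0.5). The separation was not particular to cKO. In dKO embryos Hey1 (-0.38 against control) and Jag1 (0.34) were likewise free of overlap, at the same smallest permutation p of 0.0286 (0.171 once adjusted). Hes5 there stood at -0.42 with overlap (permutation p = 0.0571, or 0.286 once adjusted), and Hes1 at -0.11 with overlap. Between dKO and cKO all of these genes overlapped. The subtracted mean of the 9 markers differed by 0.10 between cKO and control as deposited and by -0.15 after centring, and the median difference of the 9 was -0.0038 and -0.25, with 2 of 9 markers called higher on the first scale and 1 called lower on the second. Among 6 proliferation markers 1 was called lower as deposited and 1 after centring. Of all tested genes, 34.3% were called higher and 1.09% lower as deposited, and 2.96% were called lower after centring.

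Markers of other cell types also moved in cKO against control, beside the differences of Hes5 and Hey1, and their part in these was not tested. Neuron markers (8 listed) summed to 229 to 253 TPM in controls and 300.3 to 368 TPM in cKO embryos, with 5 of 8 called higher as deposited and 0 of 8 after centring, where 2 had an unadjusted p under 0.05 by limma. Microglia markers (6 listed) summed to 6.42 to 7.35 and 21.7 to 30.5 TPM, with 4 of 5 tested called higher as deposited and 4 of 5 after centring. Hem and choroid plexus markers (6 listed) summed to 43.8 to 101 and 84.8 to 251 TPM, with 3 of 5 tested called higher as deposited and 1 after centring. Of 5 intermediate progenitor markers, which summed to 36.7 to 51.6 and 37.1 to 48.7 TPM, 1 was called higher and 1 lower as deposited, and 0 and 2 after centring. Neurog2, called lower on both scales, and Insm1 are among these markers and also among the other pathway genes below. Their values are therefore not separate evidence. Of all tested genes, 34.3% were called higher and 1.09% lower as deposited, and 3.72% and 2.96% after centring. At an unadjusted limma p under 0.05, 11.5% of all genes were higher after centring. None of these markers was at 0 throughout a group.

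**Figure D3:**
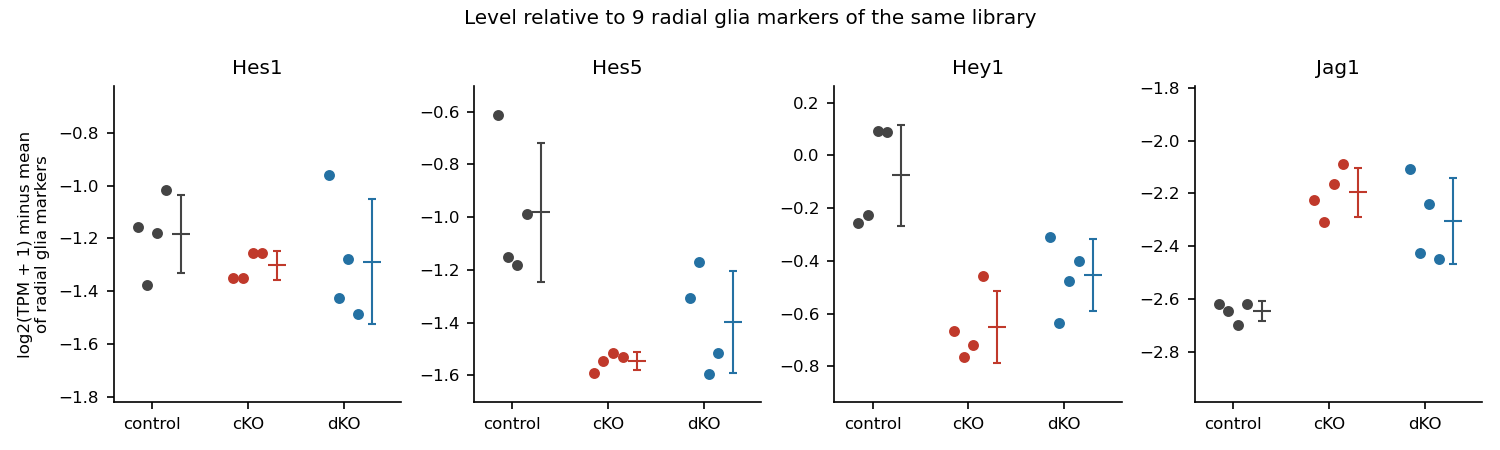
Level of Hes1, Hes5, Hey1 and Jag1 relative to the mean of 9 radial glia markers in the same library, in log2(TPM + 1) units, 1 point per embryo with the mean and SD of each group of 4. The panels have equal spans but different centres, and Hes5 in cKO (-1.59 to -1.52) lies below every control (-1.18 to -0.61).

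The comparison of dKO with control addresses which differences were present with Trp53 deleted too. On the deposited scale limma called 0 of 10 members, beside 5.19% of all tested genes (1.79% higher and 3.40% lower), and 3 members had an unadjusted p under 0.05 (Jag1 higher, Hes5 and Hey1 lower), as had 20.1% of all genes. After centring Jag1 rose and Hey1 fell, 2 of 10 members beside 8.43% of all genes (3.74% higher and 4.69% lower). The same 2 were called after protein-coding rescaling, beside 9.18% of all genes (5.44% higher and 3.74% lower). Groups did not overlap for 1 member as deposited, beside 13.6% of all genes, and for 2 after centring, beside 14.1%.

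Hey1 read 11.9, 11.1, 11.5 and 11.98 TPM in dKO 1 to 4, all below the lowest control at 12.9 TPM. Its mean was 73.1% of control, with a log2 difference of -0.41 ± 0.13 as deposited (SE; limma adjusted p = 0.0919) and -0.39 ± 0.10 after centring (adjusted p = 0.0366). Hes5 read 5.44, 7.36, 4.76 and 4.99 TPM. Embryo dKO 2 lay within the control range and the other 3 below it, and the difference of -0.45 as deposited and -0.43 after centring was not called (limma adjusted p = 0.156 and 0.0892). Without control 1 it was -0.28 on both scales, and without dKO 2 it was -0.56 as deposited and -0.53 after centring, the latter called (limma adjusted p = 0.0443). The Jag1 values were 2.70, 2.50, 2.68 and 2.14 TPM, of which only the last overlapped with a control. Its log2 difference was 0.31 ± 0.11 as deposited (SE; limma adjusted p = 0.124) and 0.33 ± 0.08 after centring (adjusted p = 0.0269). The centred call of Hey1 ended without control 3, control 4, cKO 1, dKO 2, dKO 3 or dKO 4 (adjusted p up to 0.103), and as deposited it was made without cKO 4 (0.0298). That of Jag1 ended without control 2, control 3, control 4, dKO 1 or dKO 3 (adjusted p up to 0.0708). In dKO the endothelial markers summed to 12.9 to 21.6 TPM, with 0 of 7 tested called higher as deposited and 2 after centring. Meningeal markers summed to 36.3 to 53.0 TPM, with 1 of 4 tested called higher as deposited and 2 after centring. Pericyte markers summed to 4.31 to 5.26 TPM, with 0 of 2 tested called on either scale. Neuron markers summed to 157 to 240 TPM, against 229 to 253 in control, with 1 of 8 called lower as deposited and 2 after centring. Intermediate progenitor markers summed to 33.7 to 42.1 TPM, with 1 of 5 called lower on each scale. Microglia markers (7.54 to 9.47 TPM) had 0 of 5 tested called on either scale. Of all genes, 1.79% were called higher and 3.40% lower as deposited, and 3.74% and 4.69% after centring. The part of these markers was not tested.

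The remaining members were called on neither scale in dKO against control. Their 95% intervals as deposited were wide, such as -0.44 to 0.50 for Dll1, -0.42 to 0.38 for Notch1 and -0.38 to 0.05 for Rbpj. The deposited log2 differences of Notch1, Notch2, Notch3, Dll1 and Dll3 ran from -0.05 to 0.03, and those of Rbpj and Hes1 were -0.16 and -0.14, all with limma adjusted p-values of 0.397 or more. Dll1 ran from 11.9 to 23.0 TPM, with dKO 1 the highest library of the series for this gene.

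Set directly against cKO, dKO embryos showed 1 called member as deposited. Rbpj fell, from 7.29 ± 0.511 to 5.52 ± 0.590 TPM (SD, n = 4), all 4 dKO embryos lying below all 4 cKO embryos (limma log2 difference -0.35 ± 0.10 SE, adjusted p = 0.0169), in a comparison in which 38.8% of all tested genes were called lower and 0.612% higher (39.4% in all). Its adjusted p was 0.0542 without cKO 2 and 0.0511 without dKO 4. After centring its difference was -0.08 (adjusted p = 0.632) and 0 of 10 members were called, beside 5.93% of all genes (2.10% higher and 3.83% lower), with 1 member, Hey1, at an unadjusted p under 0.05. Protein-coding rescaling also gave 0 called members, beside 9.68% of all genes (1.40% higher and 8.28% lower). Groups did not overlap for 2 members, Jag1 and Rbpj, as deposited, beside 33.2% of all genes, and for 1, Hes5, after centring, beside 14.7%. For the 2 effectors that were lower in cKO, the dKO minus cKO differences were 0.02 for Hes5 (95% interval -0.35 to 0.38) and 0.06 for Hey1 (-0.22 to 0.35) as deposited. After centring they were 0.28 (-0.03 to 0.60; limma adjusted p = 0.260) and 0.33 (0.11 to 0.55; adjusted p = 0.0763). Centred values of Hes5 in the 4 dKO embryos, 2.61 to 3.13, all lay above the highest cKO value of 2.59. The interval for Jag1 after centring was -0.14 to 0.20.

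Beyond these members, 58 other genes of the pathway were listed by role, of which 46 entered the test. In cKO against control 18 of 46 were called higher and 1 lower as deposited, beside 34.3% and 1.09% of all genes, with a median difference of 0.23 beside 0.25 for all genes. After centring 2 were called higher and 2 lower, beside 3.72% and 2.96% of all genes, with a median of -0.02. The proteases that cut the receptor and its ligands, with 7 of 9 called higher as deposited, had 0 of 9 called after centring, and the ubiquitin ligases and traffic genes had 6 of 12 and 0 of 12. Among these proteases, Psen2 read 0.489 to 1.05 TPM in control, 0.812 to 1.13 in dKO and 1.16 to 1.62 in cKO. Its entry to the test rested on the cKO values, as did that of Jag2 below, which limits what these counts show. In dKO against control 1 was called higher and 0 lower as deposited, beside 1.79% and 3.40% of all genes, and 3 and 0 after centring, beside 3.74% and 4.69%. At an unadjusted limma p under 0.05, 4 were lower as deposited and 5 after centring, where 11.8% and 12.5% of all genes were. In dKO against cKO 0 were called higher and 14 lower as deposited, beside 0.612% and 38.8% of all genes, and 0 and 2 after centring, beside 2.10% and 3.83%. At an unadjusted p under 0.05 the genes higher in that contrast numbered 0 as deposited and 8 after centring, where 1.05% and 11.1% of all genes were.

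Jag2, a second Serrate-type ligand, was called on both scales in cKO and again between the mutants. Controls had 1.13, 0.729, 0.799 and 1.42 TPM, cKO embryos had 2.55, 1.90, 2.93 and 2.52 TPM, and dKO embryos had 0.679, 1.16, 0.799 and 0.879 TPM. As deposited the cKO values were above all others, and the dKO values overlapped with control. Jag2 passed the filter with an overall mean of 1.46 TPM, which the cKO embryos (mean 2.47) raised. The control mean, 1.02 TPM, was barely over the filter of 1 TPM, and the dKO mean, 0.878, was under it. Entry to the test thus rested on the group then called higher, which limits what these calls show. Between cKO and control the log2 difference was 0.79 as deposited and 0.54 after centring (limma adjusted p = 0.00180 and 0.0351), and that of dKO from cKO was -0.88 and -0.62 (adjusted p = 0.000794 and 0.0228). The centred calls ended without control 1, control 2, control 3, cKO 1 or cKO 3 in the first contrast (adjusted p up to 0.105) and without cKO 1, cKO 3, dKO 1 or dKO 3 in the second (up to 0.0681). Jag1 and Jag2 thus stood at different levels in dKO relative to control, 0.33 against -0.08 after centring, a contrast between 2 genes that was not tested.

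Neurog2, a proneural factor that activates Dll1 and is repressed by Hes proteins, fell in cKO. Controls had 20.4, 12.9, 14.98 and 13.9 TPM, cKO embryos had 10.3, 10.5, 9.66 and 12.003 TPM, and dKO embryos had 12.9, 13.1, 10.5 and 9.51 TPM. All cKO embryos were below all controls (log2 difference -0.49 as deposited and -0.74 after centring, limma adjusted p = 0.0189 and 0.00240), and no left-out embryo ended either call. In dKO it was called on neither scale (limma adjusted p = 0.126 and 0.0693). Neurog1, its close relative, was not called as deposited or after rescaling but was called lower after centring (-0.69, limma adjusted p = 0.0190). Kdm5a, a histone demethylase that acts with Rbpj in repression, rose in cKO from 8.35 ± 0.284 to 12.4 ± 1.48 TPM (SD, n = 4; limma adjusted p = 0.00154, and 0.0351 after centring). Its dKO values ran from 9.10 to 10.3 TPM. Tle4, a Groucho-type corepressor, rose in dKO from 4.79 ± 0.557 to 6.88 ± 0.807 TPM (limma adjusted p = 0.0498, and 0.00707 after centring). The higher level was not particular to dKO. Tle4 read 6.87, 6.61, 5.67 and 8.61 TPM in cKO embryos, against 4.02 to 5.21 TPM in controls, although cKO and control values overlapped after centring. Fbxw7, a ubiquitin ligase subunit that marks the cut receptor for degradation, was lower in dKO than in cKO, at 3.32 ± 0.353 against 5.22 ± 0.551 TPM (limma adjusted p = 0.00111, and 0.0384 after centring). Controls ran from 3.42 to 3.76 TPM and overlapped with dKO (2.81 to 3.56). All cKO embryos (4.58 to 5.93 TPM) lay above every control, so cKO was the group that stood apart. Leaving out single embryos, the deposited calls of Kdm5a and Fbxw7 held in 12 of 12 fits and the centred ones in 5 and 3 of 12. For Tle4 the deposited call held in only 2 of 12 fits, those without cKO 3 or cKO 4, and the centred one in 12 of 12.

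**Figure D4:**
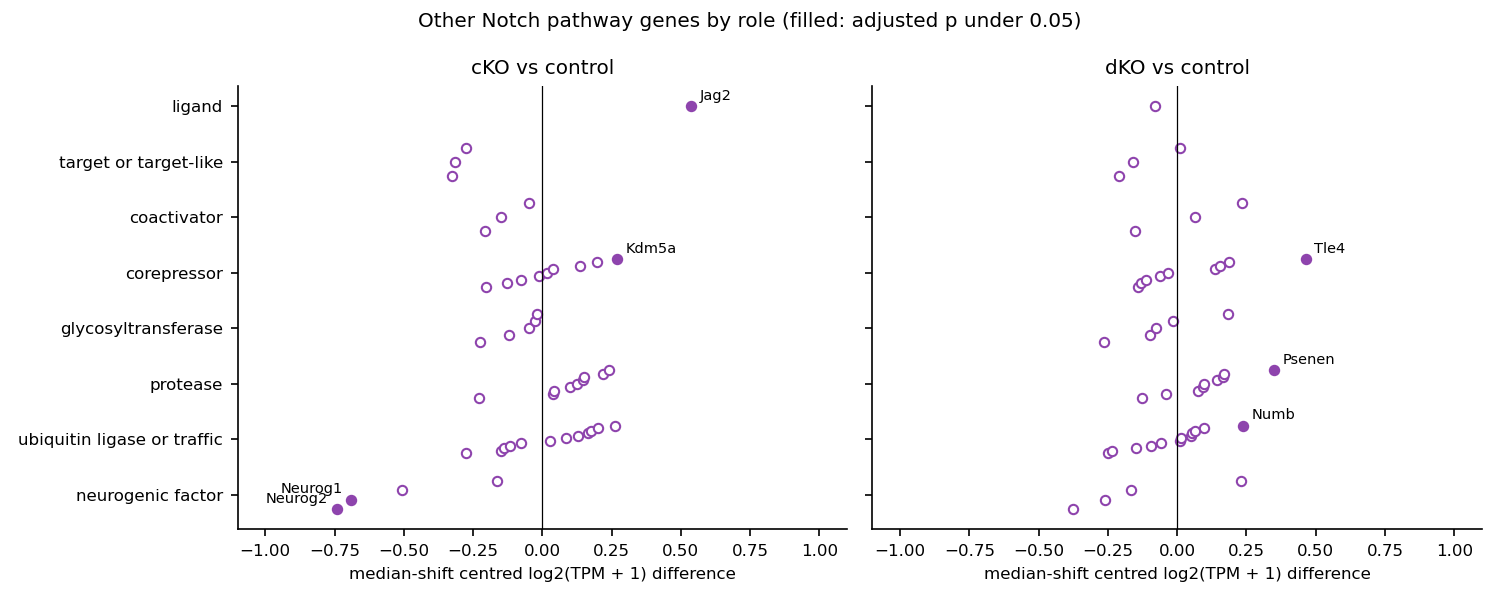
Median-shift centred differences in log2(TPM + 1) for the 46 other pathway genes by role, 1 point per gene, for cKO against control on the left and dKO against control on the right, filled and named where the adjusted p is under 0.05. On the left Jag2 (0.54) and Kdm5a lie to the right of 0 and Neurog1 (-0.69) and Neurog2 (-0.74) to the left, and on the right Tle4, Psenen and Numb are filled.

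The 3 members whose centred group means ranged most were Hey1 (0.72 log2 units), Hes5 (0.71) and Dll1 (0.34). For each, the genes with the most similar pattern over the 12 libraries were sought among the 5803 genes averaging 5 TPM or more, by the root mean square difference of centred log2 values after subtraction of each gene's mean. Hes5 was closest to Neurog2, at 0.115 log2 units, then to Ttyh1 (0.1504) and Efnb1 (0.162). The 3 genes closest to Hey1 were all replication-dependent histone genes, Hist1h4a (0.0793), Hist1h2bf (0.0866) and Hist1h4c (0.0956). Such histone genes are near-identical copies of each other, and how shared reads were assigned is not given in the sources used here, so their values are uncertain. Dll1, which was called in no comparison, was closest to Grwd1 (0.0969), Nelfa (0.123) and Srsf2 (0.123). These distances are descriptions over libraries that share their genotype groups.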

How the data were processed

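RNA of dissected E13.5 pallia was profiled in 12 libraries, 4 each of control, cKO and dKO. The deposited TPM values, 1 table per library with no header, sum to 1000000 per library, from which the unit was inferred. HISAT2 and the genome build mm10 are named, without version or role, in the submitters' processing notes. The counting tool, the annotation and how reads shared between genes were assigned are not given in the sources used here. Depth cannot be read from TPM, and intervals that need it were not computed. Libraries were made with a stranded total RNA kit, per the labels' design text.

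Groups and replicate numbers came from the sample titles. The fit used limma 3.58.1 under R 4.3.3 (lmFit, then eBayes with trend) on log2(TPM + 1), with 3 groups in 1 model and the 11764 genes that averaged 1 TPM or more, and with Benjamini-Hochberg adjustment over all of them. Genes with an adjusted p under 0.05 were called. Fold changes on this scale understate those of low genes. Gene positions are from GENCODE M21 (GRCm38). The procedure was checked on simulated data with independent noise and with changes larger than those of any member. That check therefore does not cover differences of the size reported here.

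The 10 members and all lists were chosen with earlier results of these data known. All members are named; of the other pathway genes, those called in a contrast as deposited and after centring, with Neurog1, Psenen and Numb added after their values were seen. A further pallial marker is not reported here. Similar patterns were sought by the rule given beside them. Alternatives were a pseudocount of 0.1, no filter, a mean of at least 5 TPM, median-shift centring, protein-coding rescaling (nuclear protein-coding genes brought to an equal sum), 2-group fits, a replicate block and leaving out each embryo. Leaving out embryos after centring and the comparison with radial glia markers were chosen after seeing the data. Plots were drawn with matplotlib 3.10.9.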

Additional observations from a re-analysis of the deposited data

Results flagged for a closer look

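Among 30 groups (10 members in 3 genotypes), 4 had 1 embryo far from the other 3, by the gap to its nearest neighbour divided by the range of the group (Dixon's 95% limit); about 1.5 such groups are expected by chance. Library cKO 4 was high for Notch1 (ratio 0.893, 8.05 TPM), Jag1 (0.951, 4.08 TPM) and Hey1 (0.868, 14.7 TPM), and control 1 was high for Rbpj (0.871, 7.70 TPM). After median-shift centring the largest ratios in these 4 groups were 0.430, 0.525, 0.653 and 0.662 in the same order, all under the limit. Among the other groups only Notch2 in cKO passed the limit after centring (0.893), with cKO 4 low at 1.88 and the other 3 between 1.94 and 1.95 log2 units. Without cKO 4 the deposited differences of cKO from control were 0.45 for Jag1 and -0.60 for Hey1.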

How the results depend on the processing

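TPM keeps no depth, so what depth limits cannot be stated. Same-numbered embryos did not deviate together (correlations of deviations over genes from -0.0954 to 0.0745 in 12 pairs, and from -0.160 to 0.142 in 36 pairs of different numbers), and nothing states that they share a litter. With a replicate block the members called were 2 for cKO against control (Hes5 lost its call, limma adjusted p = 0.0779), 1 for dKO against cKO and 0 for dKO against control, and the other pathway genes called were 14, 12 and 0. 

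Of the 10 members, those called in cKO against control numbered 1 with a mean of at least 5 TPM, under which only 6 were tested, and 1 to 3 when single embryos were left out. In dKO against control there were 2 after centring, 2 after protein-coding rescaling and 0 to 1 without single embryos. In dKO against cKO there were 0 under both scalings and 0 to 2 without single embryos. Other pathway genes called in cKO against control, 19 as deposited, numbered 12 with a mean of at least 5 TPM, 4 after centring, 8 after rescaling and 11 to 19 without single embryos, the lowest without cKO 2 or cKO 4. In dKO against cKO, 14 as deposited, they numbered 6, 2 and 4 under the same settings. In dKO against control, 1 as deposited, they numbered 3 after centring and after rescaling and 0 with no filter, with a mean of at least 5 TPM, in the 2-group fit, and at the least without single embryos (0 to 1). The share of all genes called was computed as deposited, after centring and after rescaling only. Under the replicate block and the other settings, these counts cannot be told apart from a general change in calls.

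Directions turned only for differences that were not called on either scale. After centring the turned log2 differences were Dll3 -0.14, Notch1 -0.16, Notch2 -0.16, Rbpj -0.0642 for cKO against control, Notch2 0.00717 for dKO against control and Dll3 0.16, Hes1 0.15, Jag1 0.0271, Notch1 0.16, Notch2 0.17 for dKO against cKO. After rescaling the turned log2 differences were Dll3 -6.32e-05, Notch1 -0.0429, Notch2 -0.0285 for cKO against control, Notch1 0.0375, Notch2 0.0401 for dKO against control and Dll3 0.0463, Hes1 0.0760, Notch1 0.0804, Notch2 0.0686 for dKO against cKO. With a pseudocount of 0.1 the turned log2 differences were Dll3 -0.00929 for dKO against control. Leaving out single embryos turned some small differences, whose ranges were Dll1 -0.20 to 0.0689, Dll3 -0.00447 to 0.19, Hes1 -0.13 to 0.0369, Notch1 -0.0105 to 0.19, Notch2 -0.0271 to 0.18 for cKO against control, Dll1 -0.16 to 0.14, Dll3 -0.13 to 0.0855, Notch1 -0.14 to 0.15, Notch2 -0.18 to 0.14, Notch3 -0.16 to 0.0492 for dKO against control and Dll1 -0.11 to 0.23, Dll3 -0.23 to 0.00481, Hes5 -0.10 to 0.0840, Notch1 -0.23 to 0.06002, Notch2 -0.27 to 0.0475 for dKO against cKO. The cause of these changes was not tested.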
